A study of Mus musculus with 7 samples.

Results

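The genes described here are 10 genes of fatty acid uptake and triglyceride turnover in tibialis anterior (TA) muscle, an anterior muscle of the lower hind limb, of mir-486 KO and WT mice. They are Lpl, Slc27a1 and Cd36, which serve fatty acid uptake, Dgat1 and Dgat2, which complete triglyceride synthesis, Plin5, Pnpla2 and Lipe, which act at the lipid droplet, and the carboxylesterase genes Ces1d and Ces2c. They were taken by symbol, 10 of the 48795 gene rows in the count table, and all 10 were among the 14002 genes with enough reads to be tested. Ces2c had enough reads only in WT libraries. The set was chosen by their measured values in this same KO and WT comparison together with their known roles. Their differences are therefore given below as a description and not as a test.

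The KO group was 4 libraries from male mice 6 months of age lacking miR-486, a muscle-enriched microRNA, and the WT group was 3 libraries from male mice of the same age. The deletion was made by CRISPR, removes the microRNA hairpin inside an intron of Ank1 on chromosome 8, and is carried in every cell of the animal. By the sample labels the KO mice are FVB N/J and the WT mice C57BL/6, while the WT column names carry FVB and the methods describe KO mice crossed onto C57BL/6J and 1 background for all mice. Strain and genotype therefore cannot be told apart here. The labels name no treatment for either group. The methods describe several mice per group, while the labels do not tie each library to a mouse, so each p-value is for the spread between libraries.

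As background, muscle fibres burn fatty acids that reach them as circulating triglyceride or as free acids bound to albumin. Lipoprotein lipase on the capillary wall frees the acids from lipoproteins, membrane proteins carry them into the fibre, and acids that are not oxidised are joined to glycerol and kept as triglyceride in lipid droplets. Lipases at the droplet surface release them again, and the droplet coat protein perilipin 5 ties droplets to mitochondria in oxidative muscle.

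Levels are given as TMM-scaled CPM, a read count normalised to the depth of its library and scaled for composition, in the order of library 1 to 4 for KO and 1 to 3 for WT. Fold changes are log2 of KO over WT with the SE of the edgeR fit. Gene counts came to between 23839577 and 28168275 reads per library. WT 3 stood apart, with correlations of 0.937 to 0.950 with the other libraries. Its reads were 22.4% mitochondrial, against 15.8% to 17.9% in KO libraries and 13.0% to 13.3% in WT 1 and WT 2. The row of the Mir486 hairpin held no read in any KO library and 1, 1 and 0 reads in WT libraries, so these libraries of long RNA do not check the deletion. The host gene Ank1 averaged 258 ± 13.1 CPM in KO (SD, n = 4) and 277 ± 18.8 CPM in WT (SD, n = 3), with a log2 fold change of -0.10. Muscle fibre markers had a summed level of 127981 to 147889 CPM in KO and 139900 to 161145 CPM in WT. They mark skeletal muscle and cannot tell TA from other limb muscles. The groups did not overlap for 4 of these 10 markers, Acta1, Pvalb and Mylpf being lower in KO and Mb higher. Over all genes tested 11.0% had every KO library above and 11.4% every KO library below. The defining marker Acta1 averaged 23449 ± 482 CPM in KO and 31142 ± 5290 CPM in WT (SD), with a log2 fold change of -0.41 (adjusted p = 0.252, edgeR).

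Of the 10 genes, 8 had a higher and 2 a lower fold change estimate in KO muscle. Every KO library lay above every WT library for 7 genes, every KO library lay below for 1, and the groups overlapped for 2. Over all genes tested, 11.0% had every KO library above and 11.4% every KO library below. At an adjusted p under 0.05 (edgeR, Benjamini-Hochberg over all 14002 genes) 5 of the 10 passed, 4 higher and 1 lower, where 2.81% of all genes passed, 0.964% higher and 1.85% lower. Since the same comparison chose the set, nothing is read from these counts. Adjusted p ran from 0.00488 to 0.0499 in the 5 that passed and from 0.0705 to 0.518 in the other 5. When a change of at least 1 log2 unit was also required, 4 of the 10 were left, and 235 of the 14002 genes. The count of 5 became 8 without WT 3, where 12.7% of all genes passed. It was 1 without KO 1 (where 48 of 13884 genes passed), KO 3 (20 of 13870) or KO 4 (21 of 13897). It was 2 without KO 2 (44 of 13914), 4 without WT 1 (289 of 14216) and 3 without WT 2 (139 of 14253). The median log2 fold change of the 10 genes was 0.65, beside -0.02 over all genes tested. In whole muscle, fewer cells of a type and less RNA per cell cannot be told apart.

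**Figure D1:**
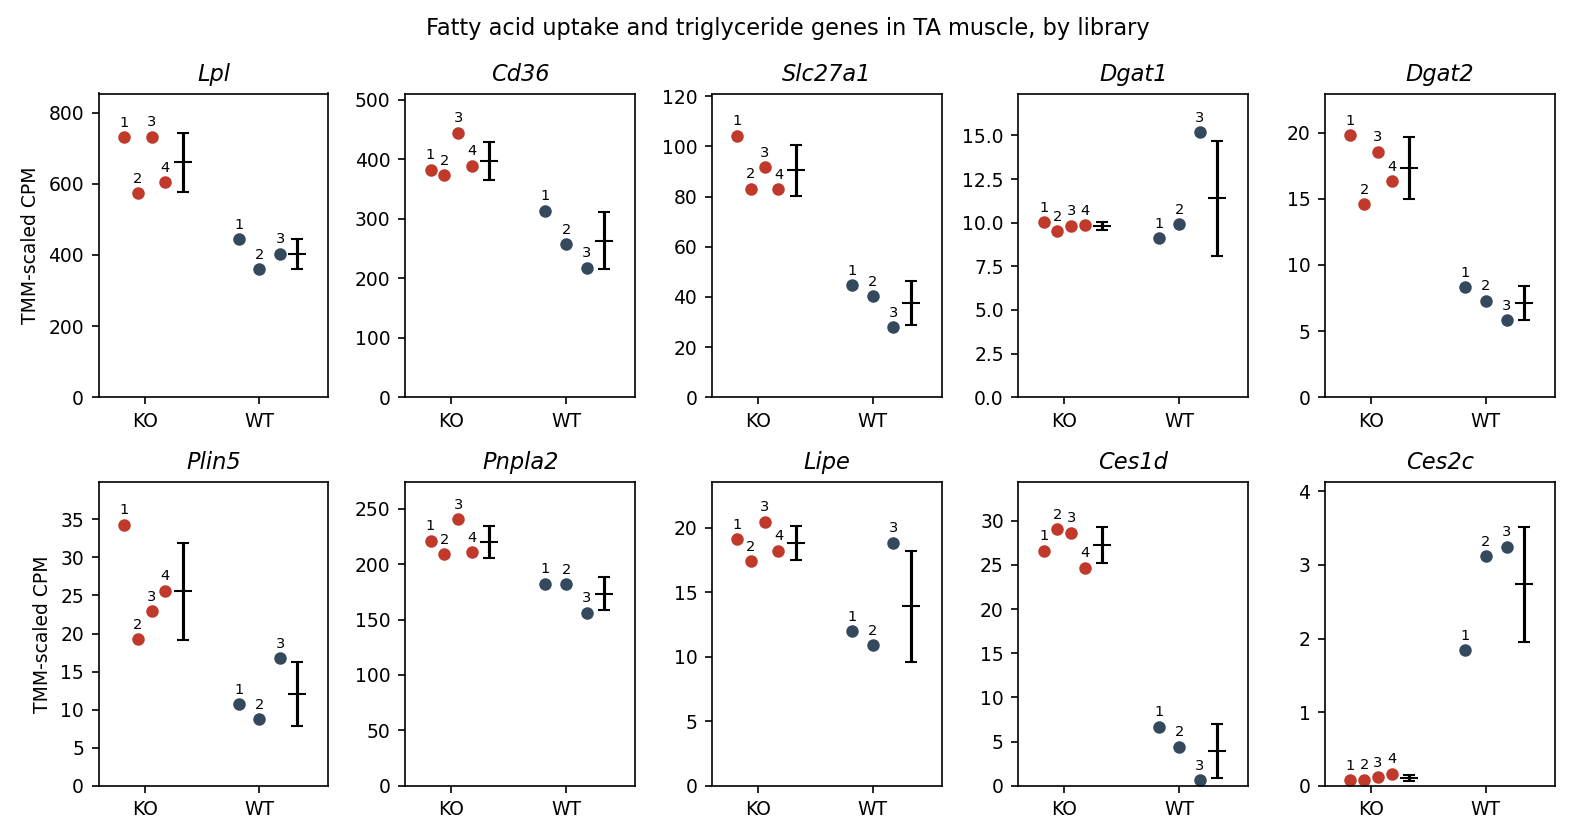
TMM-scaled CPM of the 10 genes in each KO library (red, left) and WT library (blue, right), with the library number above each point and the mean and SD beside each group. Slc27a1, Dgat2 and Ces1d sit higher in every KO library than in any WT library, Ces2c sits at 0.164 CPM or less in KO against 1.84 CPM or more in WT, and Dgat1 and Lipe overlap.

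Promoter sequence is shown for 4 of the genes for which RefSeq (build GRCm38.p6) gave a window of 250 bases before to 50 after an annotated start. Cd36 and Plin5 are shown because they hold the half-site AGGTCA (or TGACCT on the other strand) bound by nuclear receptors such as the PPARs, Slc27a1 and Ces2c because their levels moved in opposite directions. Capitals mark the half-site, and each sequence runs 5′ to 3′ on the strand of the gene. The windows are chr5:17835847-17836146 on the minus strand for Cd36, chr17:56117499-56117798 on the minus strand for Plin5, chr8:71568621-71568920 on the plus strand for Slc27a1 and chr8:104846818-104847117 on the plus strand for Ces2c.
Cd36: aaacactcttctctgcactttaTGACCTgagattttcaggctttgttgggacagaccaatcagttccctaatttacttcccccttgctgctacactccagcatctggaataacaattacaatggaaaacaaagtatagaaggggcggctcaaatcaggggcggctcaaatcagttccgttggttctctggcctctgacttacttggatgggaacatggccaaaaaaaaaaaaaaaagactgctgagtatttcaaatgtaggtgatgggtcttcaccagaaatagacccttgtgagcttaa
Plin5: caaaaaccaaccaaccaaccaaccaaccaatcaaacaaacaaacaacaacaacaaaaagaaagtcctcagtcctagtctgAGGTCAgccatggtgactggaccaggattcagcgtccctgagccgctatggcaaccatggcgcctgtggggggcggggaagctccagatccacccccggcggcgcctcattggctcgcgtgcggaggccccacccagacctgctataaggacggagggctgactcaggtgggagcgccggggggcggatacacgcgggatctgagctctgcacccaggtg
Slc27a1: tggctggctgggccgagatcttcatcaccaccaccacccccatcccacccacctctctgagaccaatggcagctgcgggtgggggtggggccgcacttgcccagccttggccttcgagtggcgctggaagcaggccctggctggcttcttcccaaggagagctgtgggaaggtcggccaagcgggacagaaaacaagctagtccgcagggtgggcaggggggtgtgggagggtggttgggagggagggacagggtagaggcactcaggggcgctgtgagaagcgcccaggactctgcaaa
Ces2c: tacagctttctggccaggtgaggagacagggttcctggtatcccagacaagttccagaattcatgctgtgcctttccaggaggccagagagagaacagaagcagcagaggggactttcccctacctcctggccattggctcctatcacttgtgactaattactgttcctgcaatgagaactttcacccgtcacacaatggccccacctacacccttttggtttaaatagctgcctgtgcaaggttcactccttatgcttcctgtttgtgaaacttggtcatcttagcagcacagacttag
Windows were found for 6 of the 10 genes, 10 windows in all, for Cd36, Lipe, Pnpla2, Slc27a1, Ces2c and Plin5. The half-site begins at position -228 from an annotated start in Cd36 and at -170 in the Plin5 window shown, and a further Plin5 window holds it at position 13. The Cd36 window lies inside the annotated span of the gene (chr5:17781690-17888801, minus strand) and not at its 5′ end. The half-site is thus in 3 of 10 windows, where 16.3% of 32851 mouse promoter windows hold it. By gene it is in 2 of 6, for which no share over all genes is given. The longer word TCAAGGTCA, which contains AGGTCA and is bound by estrogen-related receptors, was in 0 of the 10 windows and in 0.423% of all. A pair of AGGNCA words 1 base apart, the layout bound by PPAR and RXR together, was in 0 of the 10 and in 0.381% of all. A match is a description of letters and not of a bound site.

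The 3 uptake genes were each higher in every mir-486 KO library than in any WT library, Slc27a1 by the widest margin. Lpl encodes lipoprotein lipase, which muscle fibres make and pass to the capillary wall, and lies at chr8:68880491-68907448 on the plus strand (ENSMUSG00000015568.16). Lpl had 731, 574, 732 and 605 CPM in KO libraries, against 444, 360.0 and 404 CPM in WT libraries. The lowest KO library was above the highest WT library, and KO averaged 660 ± 82.9 CPM against 403 ± 42.1 CPM in WT (SD). Its log2 fold change was 0.71 ± 0.15 (SE), a ratio of 1.64, and its adjusted p of 0.0499 was the nearest to the threshold of the 5 genes that passed. Lpl no longer passed when any 1 library other than WT 3 was left out (adjusted p 0.0712 to 0.158), with upper-quartile scaling (0.0622) or with a minimum count of 30 (0.0501).

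Slc27a1 encodes FATP1, a membrane-bound transporter that also joins fatty acids to coenzyme A, and lies at chr8:71568882-71587302 on the plus strand (ENSMUSG00000031808.7). It had 104, 83.1, 91.8 and 82.9 CPM in KO libraries, against 44.6, 40.2 and 27.9 CPM in WT libraries. The groups were well apart, with the lowest KO library 82.9 and the highest WT library 44.6 CPM. KO averaged 90.5 ± 10.1 CPM and WT 37.6 ± 8.61 CPM (SD), and the log2 fold change was 1.27 ± 0.18 (SE), a ratio of 2.41. WT 3 was the lowest of all 7 libraries, and without it the log2 fold change was 1.10.

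Cd36 encodes the fatty acid translocase, a surface receptor of muscle fibres that capillary endothelium, macrophages and adipocytes also carry, and lies at chr5:17781690-17888801 on the minus strand (ENSMUSG00000002944.15). It had 382, 373, 444 and 389 CPM in KO libraries, against 313, 257 and 218 CPM in WT libraries. Again no library overlapped, with means of 397 ± 32.2 CPM in KO and 263 ± 48.0 CPM in WT (SD). The difference was smaller, a log2 fold change of 0.60 ± 0.16 (SE, 95% interval 0.24 to 0.95), and was not among the 5 that passed.

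Per kilobase of annotated exon, Cd36 was the most abundant of the 10 genes in both groups, at 111 ± 8.96 in KO and 73.2 ± 13.4 in WT (CPM per kilobase, SD). That place depends on the length used, the union of annotated exons, which is 10478 bases for Lpl and 3590 for Cd36. By CPM, Lpl was the highest of the 10 genes in every library. Per kilobase, Slc27a1 stood at 15.5 ± 1.73 in KO and 6.44 ± 1.48 in WT (SD). The ratio of Cd36 to Slc27a1 within a library was 5.95, 7.29, 7.86 and 7.62 in KO, against 11.4, 10.4 and 12.7 in WT. By RNA per kilobase, Cd36 thus led Slc27a1 by a smaller ratio in every KO library than in any WT library. Both genes were chosen on these values, and protein was not measured.

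The pair of enzymes that make triglyceride differed from each other. Dgat1 and Dgat2 both encode diacylglycerol acyltransferases, which add the last fatty acid, and they are unrelated in sequence. DGAT2 is known for esterifying newly made fatty acids and DGAT1 for re-esterifying acids from outside the cell. Dgat2, at chr7:99153658-99182719 on the minus strand (ENSMUSG00000030747.5), had 19.8, 14.6, 18.6 and 16.3 CPM in KO libraries, against 8.33, 7.28 and 5.80 CPM in WT libraries. Every KO library was above every WT library. The means were 17.3 ± 2.33 CPM in KO and 7.14 ± 1.27 CPM in WT (SD), with a log2 fold change of 1.28 ± 0.17 (SE), a ratio of 2.42.

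Dgat1, at chr15:76502015-76511953 on the minus strand (ENSMUSG00000022555.11), had 10.04, 9.50, 9.83 and 9.87 CPM in KO libraries, against 9.11, 9.91 and 15.2 CPM in WT libraries. The groups overlapped, and KO libraries were close together, with a coefficient of variation of 2.30%, against 28.9% in WT. Its log2 fold change was -0.22 ± 0.18 (SE, 95% interval -0.63 to 0.19), and it was 0.05 without WT 3, the library with 15.2 CPM. The ratio of Dgat2 to Dgat1 per kilobase of exon was 1.96, 1.52, 1.87 and 1.64 in KO libraries, against 0.906, 0.728 and 0.379 in WT libraries. Dgat2 was therefore the more abundant of the pair in every KO library and Dgat1 in every WT library, with mean ratios of 1.75 ± 0.202 in KO and 0.671 ± 0.268 in WT (SD).

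At the lipid droplet, the coat protein gene and the first lipase were higher in every KO library, and the second lipase was not. Plin5 encodes perilipin 5, the droplet coat of oxidative tissue, and lies at chr17:56111601-56117596 on the minus strand (ENSMUSG00000011305.11). It had 34.3, 19.3, 22.9 and 25.6 CPM in KO libraries, against 10.7, 8.71 and 16.8 CPM in WT libraries. The closest libraries were KO 2 and WT 3, at 19.3 and 16.8 CPM, and KO 1 was well above the other KO libraries. The log2 fold change was 1.08 ± 0.27 (SE, 95% interval 0.47 to 1.69). It was not among the 5 genes that passed, and it was 1.40 without WT 3.

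Pnpla2 encodes adipose triglyceride lipase (ATGL), which removes the first fatty acid from triglyceride, and lies at chr7:141455198-141460743 on the plus strand (ENSMUSG00000025509.15). It had 221, 209, 241 and 211 CPM in KO libraries, against 182, 182 and 156 CPM in WT libraries. All KO libraries were above all WT libraries by a small margin, with a log2 fold change of 0.35 ± 0.12 (SE, 95% interval 0.06 to 0.63), and Pnpla2 was not among the 5 that passed.

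Lipe encodes hormone-sensitive lipase, which acts mainly on diacylglycerol, and lies at chr7:25379527-25398710 on the minus strand (ENSMUSG00000003123.15). It had 19.1, 17.4, 20.5 and 18.2 CPM in KO libraries, against 12.0, 10.9 and 18.8 CPM in WT libraries. WT 3 fell within the KO range while WT 1 and WT 2 lay below it, and the log2 fold change of 0.44 ± 0.19 (SE) became 0.72 without WT 3. Exons of the opposite-strand gene 4732471J01Rik overlap 918 bases, 15.6% of the Lipe exons, and the strand setting of the counts is not given in the sources used here. That gene had 13, 12, 21 and 16 reads in KO and 19, 9 and 17 reads in WT. Per kilobase of exon, Lipe stood at 0.0438 ± 0.000763 of Pnpla2 in KO libraries and 0.0421 ± 0.0172 in WT libraries (SD), but the WT mean rests on WT 3, at 0.0619, while WT 1 and WT 2, at 0.0337 and 0.0307, lay below every KO library.

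**Figure D2:**
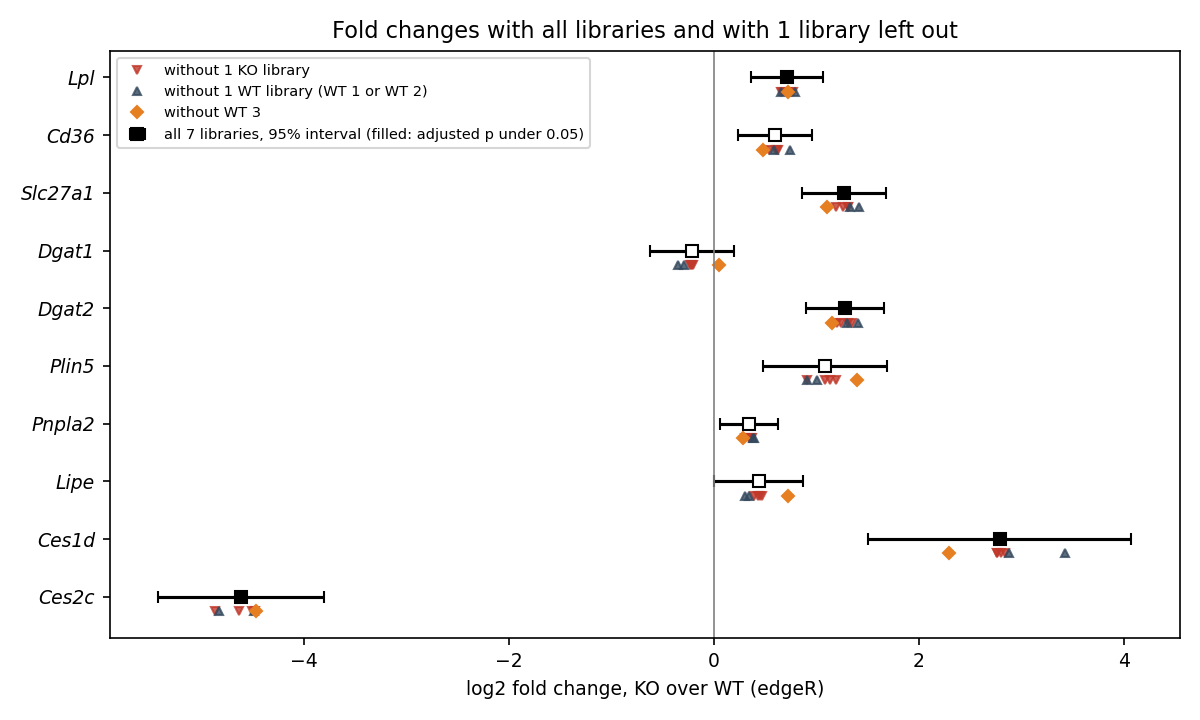
Log2 fold change of KO over WT (edgeR) for each gene with its 95% interval over all 7 libraries (squares, filled where adjusted p was under 0.05) and with 1 library left out (small marks, orange for WT 3). Dgat1 is the only one of the 10 genes whose sign turned, at 0.05 without WT 3, and Ces1d moved most among the genes higher in KO, between 2.30 and 3.43.

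Ces1d and Ces2c, the carboxylesterase genes of the set, moved in opposite directions and had the widest differences. Carboxylesterases hydrolyse ester bonds in drugs and lipids and are most abundant in liver and intestine. Ces1d, also known as triacylglycerol hydrolase and expressed in adipose tissue, lies at chr8:93166068-93197838 on the minus strand (ENSMUSG00000056973.6). It had 26.6, 29.0, 28.7 and 24.7 CPM in KO libraries, against 6.69, 4.39 and 0.617 CPM in WT libraries. Behind these lay 708, 731, 767 and 600 reads in KO, against 196, 117 and 15 reads in WT. KO libraries were alike, with a coefficient of variation of 7.42%, while WT libraries spread widely, at 78.6%. The log2 fold change of 2.79 ± 0.56 (SE, 95% interval 1.51 to 4.07) was 2.30 without WT 3.

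Ces2c, of the carboxylesterase 2 subfamily, whose members hydrolyse acylglycerols, lies at chr8:104847068-104854483 on the plus strand (ENSMUSG00000061825.10). It had 0.0752, 0.0795, 0.112 and 0.164 CPM in KO libraries, against 1.84, 3.12 and 3.25 CPM in WT libraries. These are 2, 2, 3 and 4 reads in KO, against 54, 83 and 79 reads in WT, so Ces2c was close to the limit of detection in every KO library. Over all libraries 11 KO reads stood against 216 WT reads, a WT over KO ratio of 25.2 after scaling, with a 95% interval of 13.8 to 51.2 (Clopper-Pearson, counting error only). The fitted log2 fold change was -4.61 ± 0.35 (SE), and it stayed between -4.87 and -4.46 with any 1 library left out. Of the 50-base words in Ces2c transcripts 36.1% also occur in another gene, most of them in Ces2d-ps, a row at 0 in all 7 libraries. Reads from those words have no unique place, so the Ces2c level is uncertain to that extent. The other 9 genes of the set shared 10.8% (Lipe) or less of such words.

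Ces1d per kilobase was 248 to 354 times Ces2c in KO 1 to KO 3 and 145 times in KO 4, against 3.52, 1.37 and 0.184 times in WT libraries. Of the pair, Ces1d was thus the more abundant in every KO library and in WT 1 and WT 2, and Ces2c in WT 3.

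**Figure D3:**
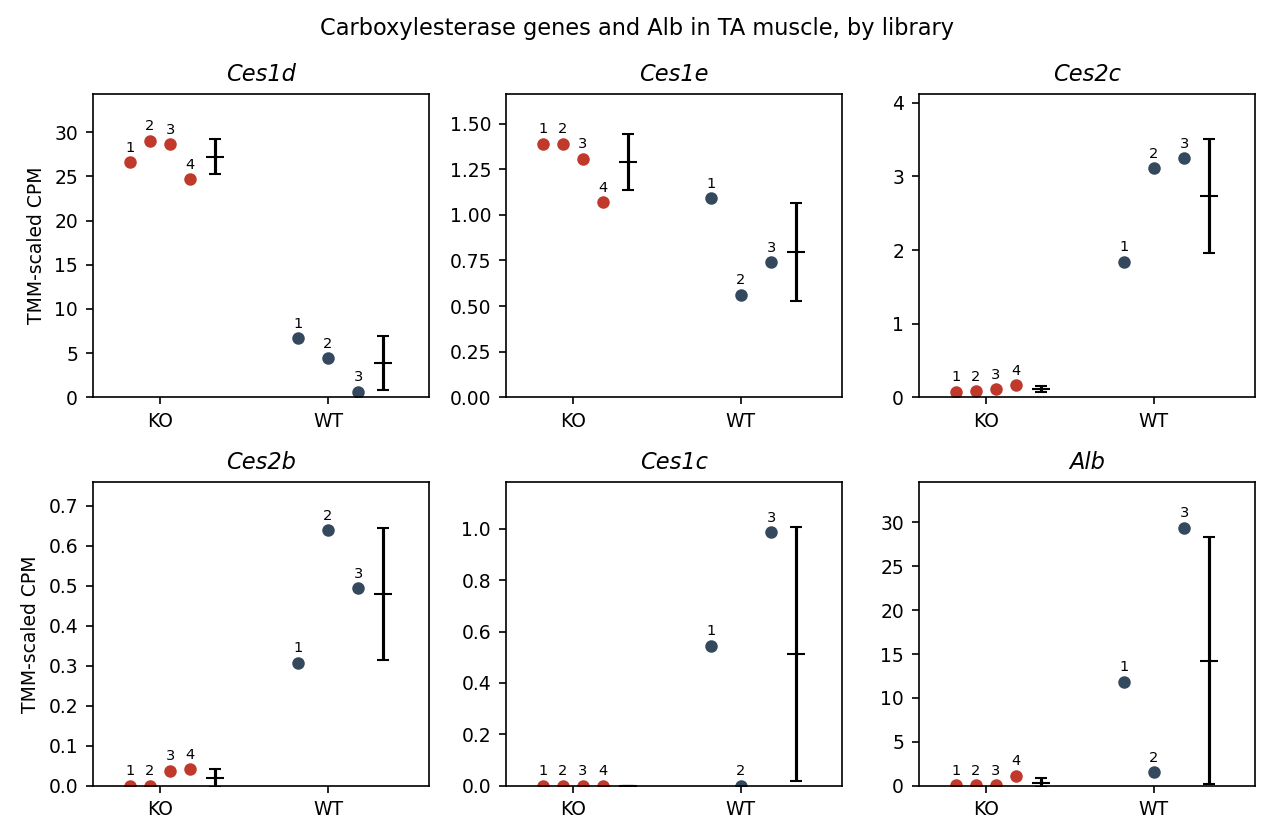
TMM-scaled CPM of Ces1d, Ces2c and 3 further carboxylesterase genes with Alb, by library, in KO (red, left) and WT (blue, right), with the mean and SD beside each group. Ces2b and Ces2c are low in every KO library, and Ces1c follows Alb in being highest in WT 3 (0.988 CPM for Ces1c and 29.4 CPM for Alb).

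Of 9 hepatocyte markers 3 were tested, and 1, Alb, passed lower, where 1.85% of all genes tested passed lower. Alb, the albumin gene of liver, had 0.0752, 0.0795, 0.0374 and 1.15 CPM in KO libraries, against 11.8, 1.50 and 29.4 CPM in WT libraries (log2 fold change -5.43 ± 1.14 SE, adjusted p = 0.0465). The 9 markers together had 0.714 to 3.00 CPM in KO and 2.97 to 45.7 CPM in WT, and these ranges touched. Ces2c did not keep the order of Alb among WT libraries, with 3.12 CPM where Alb had 1.50 and 1.84 CPM where Alb had 11.8. Ces1d was lowest, at 0.617 CPM, in WT 3, where Alb was highest. What part of either carboxylesterase difference comes with these markers was not tested.

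Across the 10 genes, levels per kilobase of exon spanned a wide range and kept much of their order between the groups. The order rests on the union of annotated exons, which puts Lpl, the highest by CPM, below Cd36 and Pnpla2. In KO muscle Cd36 was followed by Pnpla2 (73.0 ± 4.82) and Lpl (63.0 ± 7.91), then by Slc27a1 (15.5 ± 1.73), Plin5 (12.2 ± 3.07) and Ces1d (11.5 ± 0.854), all in CPM per kilobase with SD. Below these came Dgat2 (5.62 ± 0.755), Dgat1 (3.21 ± 0.0738), Lipe (3.19 ± 0.223) and Ces2c (0.0469 ± 0.0179). Plin5 and Ces1d, and likewise Dgat1 and Lipe, were closer than their spread. In WT muscle the first 5 places were the same, with Pnpla2 at 57.5 ± 4.95, Lpl at 38.4 ± 4.01 and Plin5 at 5.78 ± 2.02, the last within its spread of Slc27a1. Dgat1 (3.73 ± 1.08) then led Lipe (2.36 ± 0.733), Dgat2 (2.31 ± 0.411), Ces1d (1.65 ± 1.29) and Ces2c (1.19 ± 0.338), where Lipe and Dgat2 were closer than the SD of either, and the gaps from Dgat2 to Ces1d and from Ces1d to Ces2c were smaller than the SD of Ces1d. The change of place between the groups was thus in Ces1d, Dgat1, Dgat2 and Lipe.

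Of the 10 genes 4 lie on chromosome 8, which also carries Ank1 and the deleted hairpin, and these are Lpl, Slc27a1, Ces1d and Ces2c. They begin 45.7, 48.4, 70.0 and 81.7 Mb beyond the end of Ank1 (GRCm38). All 4 were among the 5 genes that passed. Over all genes tested, 30 of 764 on chromosome 8 passed (3.93%), and 364 of 13238 elsewhere (2.75%). The 10 genes were chosen on this same comparison, so nothing is read from where those that passed lie. Ces1d and Ces2c also share a gene family whose listed members are all on chromosome 8.

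The other genes of the same pathways were examined in 5 lists written from their known roles. Among other uptake and lipoprotein lipase genes, 15 of 22 listed were tested and 0 passed (edgeR), with 2 at an unadjusted p under 0.05 and 0 passing with DESeq2. Over all genes tested, 20.2% had an unadjusted p under 0.05 with edgeR and 6.53% passed with DESeq2. The median log2 fold change was 0.10. The 4 with the smallest p were Slc27a3, a relative of Slc27a1 (-0.83, adjusted p = 0.144), the fatty acid binding protein gene Fabp5 (-1.05, adjusted p = 0.146), the lipase maturation factor gene Lmf1 (-0.32, adjusted p = 0.280) and the lipoprotein receptor gene Vldlr (0.57, adjusted p = 0.327). WT 3 carried much of these estimates, which without it were -0.59 for Slc27a3, -0.42 for Fabp5, -0.16 for Lmf1 and 0.27 for Vldlr. Gpihbp1, the endothelial protein that holds lipoprotein lipase at the capillary wall, had 52.2, 36.4, 43.7 and 47.3 CPM in KO libraries, against 28.7, 24.1 and 61.6 CPM in WT libraries. The Gpihbp1 groups overlapped through WT 3, and it was the gene of this list that passed, higher in KO, once WT 3 was left out. It was chosen for mention after its values were seen.

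Of other glycerolipid synthesis genes, which make the phosphatidic acid and diacylglycerol that Dgat1 and Dgat2 use, 16 of 19 were tested, 0 passed higher and 1 passed lower. Over all genes tested 0.964% passed higher and 1.85% lower. An unadjusted p under 0.05 (edgeR) was reached by 4 of the 16 and by 20.2% of all genes. The gene that fell was Plpp2, a lipid phosphate phosphatase gene, with 0.677, 0.517, 0.486 and 0.493 CPM in KO libraries, against 1.19, 1.31 and 1.77 CPM in WT libraries (log2 fold change -1.38 ± 0.25 SE, adjusted p = 0.0291, edgeR). Its groups did not overlap, but it is a low-level gene, and it no longer passed without any 1 of the KO libraries or without WT 2 (adjusted p 0.0672 to 0.107). The median of the list was -0.11.

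Among other lipolysis and lipid droplet genes, 19 of 21 were tested and 0 passed with edgeR, while 7 had an unadjusted p under 0.05 and 5 passed with DESeq2 (Abhd6, Plin3, Plin4, G0s2 and Pnpla3, 3 higher and 2 lower), beside the 20.2% and 6.53% of all genes at the same thresholds. The median log2 fold change was -0.13. G0s2, whose protein inhibits the ATGL encoded by Pnpla2, had 10.4, 7.19, 8.93 and 7.73 CPM in KO libraries, against 15.7, 11.1 and 39.1 CPM in WT libraries (log2 fold change -1.35, adjusted p = 0.104, edgeR). All KO libraries of G0s2 were below all WT libraries, and WT 3 stood far above the rest, with a log2 fold change of -0.64 without it. Abhd6, a monoacylglycerol lipase gene (0.54, adjusted p = 0.0821), and Plin3, a droplet coat gene (0.56, adjusted p = 0.0880), had higher estimates in KO, and Cidea, a droplet fusion gene at under 1 CPM, a lower one (-1.44, adjusted p = 0.0715).

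**Figure D4:**
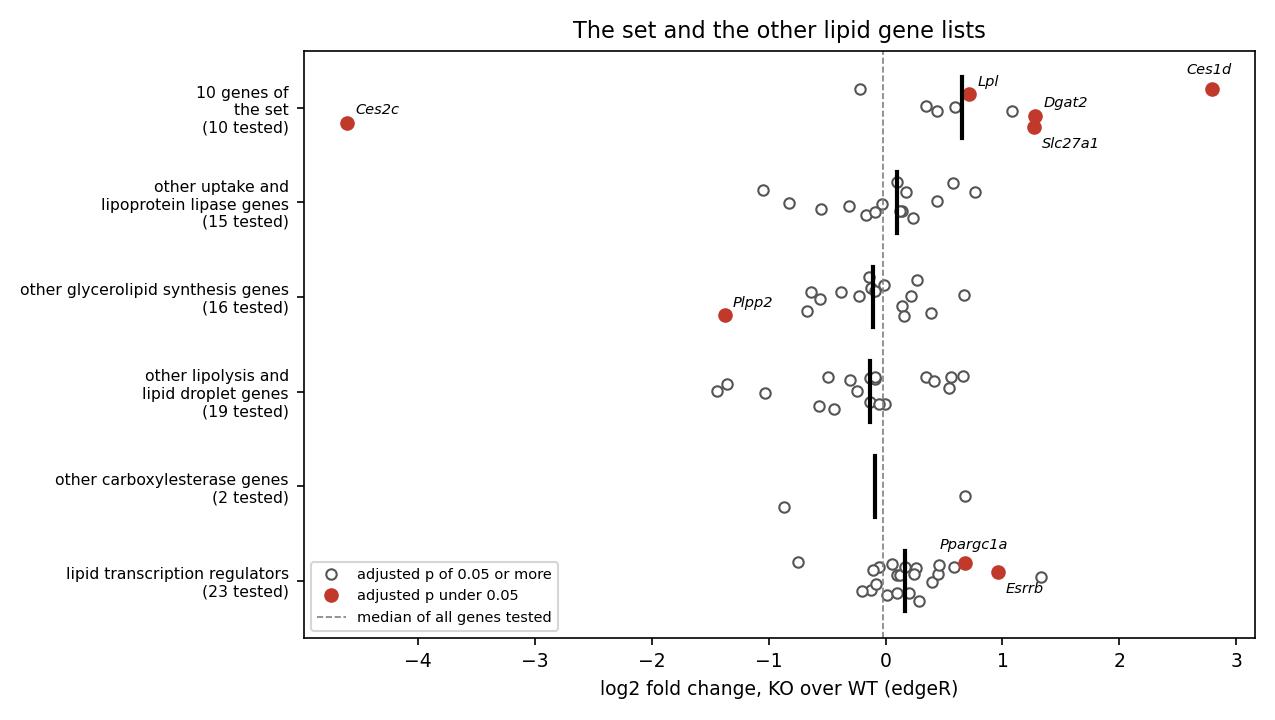
Log2 fold change of KO over WT (edgeR) of every tested gene of the set and of the 5 pathway lists, with the list median as a black bar, the median of all genes tested (-0.02) as a dashed line, and genes with an adjusted p under 0.05 filled. The set has a median of 0.65, and the lists lie between -0.13 and 0.17, but the set was chosen on these values.

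Among lipid transcription regulators, 23 of 23 were tested, 2 passed higher and 0 lower (edgeR), and the list median was 0.17. Over all genes tested 0.964% passed higher and 1.85% lower. An unadjusted p under 0.05 (edgeR) was reached by 6 of the 23 and by 20.2% of all genes. Ppargc1a encodes PGC-1α, a coactivator of oxidative metabolism, and had 70.5, 71.6, 77.5 and 75.2 CPM in KO libraries, against 48.4, 44.5 and 45.4 CPM in WT libraries. Its groups were well apart, with a log2 fold change of 0.68 ± 0.10 (SE, adjusted p = 0.0185). Esrrb, an orphan nuclear receptor gene of the estrogen-related family, had 6.65, 5.72, 8.86 and 7.48 CPM in KO libraries, against 3.65, 4.09 and 3.33 CPM in WT libraries. It too rose without overlap, by 0.96 ± 0.18 (SE, adjusted p = 0.0332). Neither passed without any 1 KO library or without WT 2, and Esrrb did not pass without WT 1 (adjusted p 0.0636 to 0.0877 for Ppargc1a and 0.0672 to 0.113 for Esrrb in those fits). Ppara, the fatty acid receptor gene, had 7.29, 13.8, 17.7 and 16.9 CPM in KO libraries, against 7.47, 7.13 and 1.89 CPM in WT libraries. The Ppara groups overlapped through KO 1, and the estimate of 1.33 did not pass with edgeR (adjusted p = 0.166) but passed with DESeq2 (adjusted p = 0.0453), for which it was named after its values were seen. Without WT 3 it was 0.93.

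Of the 17 other carboxylesterase genes, all on chromosome 8, 2 were tested and 0 passed with edgeR, with 1 at an unadjusted p under 0.05, a level that 20.2% of all genes reached. Ces1e, the gene next to Ces1d, had 1.39, 1.39, 1.31 and 1.07 CPM in KO libraries, against 1.09, 0.563 and 0.741 CPM in WT libraries (log2 fold change 0.68, adjusted p = 0.208). Ces2g overlapped as well (-0.87, adjusted p = 0.416). The other 15 had too few reads to be tested. Among these Ces2b, which neighbours Ces2c, had 0, 0, 1 and 1 reads in KO libraries, against 9, 17 and 12 reads in WT libraries. That is 2 reads against 38, a WT over KO ratio of 24.4 with a 95% interval of 6.29 to 208 (Clopper-Pearson, counting error only). Ces2b passed with DESeq2 (adjusted p = 0.00445) and with edgeR when no filter was set (adjusted p = 0.00801), and it was singled out after its values were seen. Ces1c had no read in any KO library and 16, 0 and 24 reads in WT libraries, present in the WT libraries with high Alb.

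Cells other than fibres also express several of the 10 genes, so their markers are given beside them. The summed level of 10 endothelial markers was 320 to 383 CPM in KO and 404 to 501 CPM in WT, below WT in every KO library. Of these Kdr fell, with 42.1, 33.5, 42.4 and 31.3 CPM in KO, against 84.5, 69.0 and 61.1 CPM in WT (log2 fold change -0.94 ± 0.16 SE, adjusted p = 0.0263), while the defining marker Pecam1 overlapped (-0.20, adjusted p = 0.440). The endothelial sums of KO 1 (383 CPM) and WT 2 (404 CPM) lay closer than their Kdr levels. The separation of the summed level therefore depends on Kdr, but Kdr was not the only marker that was lower. Every KO library lay below every WT library for 5 of the 10 markers, beside 11.4% of all genes tested. These were Kdr, Egfl7 (-0.84), Cldn5 (-0.94), Tek (-0.29) and Cdh5 (-0.25), of which only Kdr passed. The list median was -0.29, beside -0.02 over all genes tested. Gpihbp1 was the only marker of this list with a higher estimate in KO (log2 fold change 0.24), and its groups overlapped. Cd36 and Lpl were higher in the same KO libraries. Adipocyte markers summed to 189 to 258 CPM in KO and 191 to 511 CPM in WT, nearly all of it Fabp4, which capillary endothelium also expresses. Without Fabp4 they summed to 3.70 to 9.53 CPM in KO and 0.939 to 9.998 CPM in WT, and Adipoq had 0.411 to 1.23 CPM in KO and 0.113 to 1.43 CPM in WT. Macrophage markers summed to 53.1 to 90.5 CPM in KO and 58.4 to 119 CPM in WT, and those of fibro-adipogenic progenitors to 669 to 945 CPM in KO and 606 to 870 CPM in WT. Their defining markers Adgre1 (log2 fold change 0.37, adjusted p = 0.681, edgeR) and Pdgfra (0.06, adjusted p = 0.885, edgeR) overlapped. The ranges of these last lists overlapped between the groups, and the part of any cell type in the differences of the 10 genes was not tested.

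For the 5 genes that passed, the genes with the most similar levels across the 7 libraries were found by Pearson's r of log2 CPM, as a description over libraries that share the 2 groups. A constant was added to CPM before the log, which compresses low levels such as those of Ces2c. Dgat2 and Slc27a1 shared D10Jhu81e as the nearest (r = 0.996 for each), followed by Hccs (0.993) for Dgat2 and by Tprgl (0.994) and Fam213a (0.994) for Slc27a1. For Lpl these were Fxyd6 (0.992), Acss1 (0.991) and Tmod3 (0.988). Ces1d was nearest to Hnmt (0.998), Suclg2 (0.997), which encodes a subunit of succinyl-CoA ligase, and Tango2 (0.996). Ces2c was nearest to Camk2d (0.996), Slc16a3 (0.996), which encodes the lactate transporter MCT4, and Ptgir (0.992), all lower in KO by their estimates (log2 fold changes of -0.60, -0.80 and -1.23).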

How the data were processed

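RNA was sequenced from TA muscle of mir-486 KO (4 libraries) and WT (3 libraries) mice, grouped by the sample titles. The authors deposited 1 table of unnormalized read counts for each gene, in whole numbers. According to the submitters' processing notes, the tools include HTSeq 0.6.1 and STAR 2.5.2b (also Trim Galore 0.4.2 and CASAVA 1.8.2), while the methods describe Salmon. For the counting, build and strand setting were not given in the sources used here. Summary rows were left out, among them reads without a unique alignment (24.4% to 34.3% of all reads), with no feature (3.25% to 4.34%) and ambiguous reads (4.04% to 4.44%). Of 48795 genes, 48349 matched GENCODE M21 (GRCm38) by identifier, and exon lengths are the union of its exons. No pair of libraries agreed within sampling noise.

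Counts were fitted with edgeR (4.0.16, R 4.3.3). Genes were kept by filterByExpr (minimum count 10), scaled by TMM and compared between genotypes by glmQLFit and glmQLFTest, and p-values were adjusted over all genes tested by the Benjamini-Hochberg method (threshold 0.05). SE is the absolute log2 fold change over the square root of F. The alternatives were DESeq2 1.42.0, other scalings and count minimums, a replicate block and leaving out each library. On simulated counts the fit recovered 54.6% of changes of 1 log2 unit and 100% of changes of 2 among 13817 genes, and 2.63% of its calls were false. The simulated libraries held no library-wide deviation such as that of WT 3, so these shares need not hold for the data. Promoter windows are from RefSeq. Levels per kilobase were added after seeing the data.

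The members and lists were chosen with earlier results of these data known. Named genes are the 10 members, every pathway gene past the threshold or otherwise up to 4 with the smallest p, marker genes past the threshold with the defining marker, and the 3 genes most correlated with each member past the threshold among named genes of at least 1 CPM. Of the last, 1 gene is not reported here.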

Additional observations from a re-analysis of the deposited data

Results flagged for a closer look

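In 2 of 31 groups of 4 KO libraries compared by Dixon's criterion, 1 library lay apart from the others, and chance gives about 1 in 20. Plpp2 had 0.677 CPM in KO 1, above the 0.486 to 0.517 CPM of the other KO libraries and still below every WT library. Alb had 1.15 CPM in KO 4, above the 0.0374 to 0.0795 CPM of the other KO libraries and below every WT library. Neither gene belongs to the set of 10.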

How the results depend on the processing

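DESeq2 called 1007 genes where edgeR called 394, and 7 of the 10 genes, adding Cd36 and Plin5. It called 2 glycerolipid synthesis genes (Plpp1 and Plpp2), 5 lipolysis genes, 1 carboxylesterase gene (Ces2b) and 3 regulators, adding Ppara. With no filter on low counts 1 lipolysis gene (G0s2) and 1 carboxylesterase gene passed, and Plin5 joined the set's calls. Requiring a change of at least 1 log2 unit left 235 genes.

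Replicate numbers did not pair the libraries: deviations of same-numbered libraries correlated at -0.315, 0.256 and -0.124. With the number as a replicate block 0 genes passed over all genes (1568 at an unadjusted p under 0.05), 0 of the 10, 0 glycerolipid synthesis genes and 0 regulators.

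With 1 library left out, calls ranged from 20 to 1802 over all genes and from 1 to 8 in the set. They ranged from 0 to 1 for other uptake genes, 0 to 3 for glycerolipid synthesis, 0 to 6 for lipolysis, 0 to 1 for carboxylesterases and 0 to 3 for regulators. The highest count over all genes came without WT 3, and the lowest without KO 3. Ces2c, which met the count filter only through WT libraries, passed in each of the 7 fits. Dgat2 passed in 4, Slc27a1 in 3, Ces1d in 2, and Lpl, Cd36, Plin5 and Lipe in 1. Dgat1 turned to 0.05 without WT 3. The cause of these changes was not tested. Depth limits genes with few reads, among them Ces2b, Ces1c, Ces2g and, in KO, Ces2c.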
